A study of Mus musculus with 6 samples.

Results

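The 34 genes described here encode the enzymes of glycolysis, the transporters that bring glucose in and carry lactate out, and the hypoxia-inducible factor (HIF) pathway that controls many of them. They were chosen by gene symbol, with earlier results of these data known. All 34 had a row among the 17525 genes of the table, and all 34 were among the 15954 genes that passed the filter on low counts. The cells were primary fibroblasts from hearts of C57BL/6 mice aged 6 weeks, used unpassaged, and the question was how loss of Sipa1, an inhibitor of the small GTPase Rap, alters their transcripts. In the scramble group (3 samples, genotype label WT) the lentivirus carried a scramble hairpin. In the knockdown group (3 samples) it carried a hairpin against Sipa1 with an EGFP reporter, and the sources used here do not say whether the scramble vector carried that reporter. All 6 samples were in 1 labelled batch and received lipopolysaccharide (LPS, a bacterial cell-wall component) at 1 µg/ml for 24 h, added 72 h after the virus. Samples without LPS were not analysed here, and the labels name no oxygen setting. Nothing in the labels tells whether replicates came from different mice or culture dishes. The p-values below therefore rest on a spread between samples that may be technical only.

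Glycolysis splits glucose into pyruvate in the cytosol and yields ATP without oxygen. Lactate dehydrogenase then reduces pyruvate to lactate, which leaves the cell through monocarboxylate transporters, or pyruvate enters mitochondria and is oxidised by the pyruvate dehydrogenase complex. HIF is a dimer of an oxygen-labile alpha subunit (Hif1a or Epas1) and the stable subunit Arnt. With oxygen, the prolyl hydroxylases Egln1, Egln2 and Egln3 mark the alpha subunit, and Vhl directs it to the proteasome. Much of this control acts on HIF protein, which RNA counts do not measure. In fibroblasts and immune cells, inflammatory stimulation is known to raise glycolysis, and HIF can be induced by LPS as well as by low oxygen.

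The libraries held 30930998 to 41839742 reads in genes, the lowest in scramble replicate 2. Sipa1 fell to 41.9% of its scramble level (log2 -1.25, SE 0.075, edgeR adjusted p = 2.64e-11), with scramble libraries at 41.0, 43.7 and 41.4 CPM and knockdown libraries at 17.7, 20.0 and 15.2 CPM. CPM are read counts scaled to a common library size (TMM). Only the CPM of the cell type markers below were scaled by the total reads of each library, without TMM. All 12 fibroblast markers had reads, summing to 26550 to 28580 CPM in scramble and 26039 to 27825 CPM in knockdown libraries. Of these, 4 fell and 0 rose: the fibroblast transcription factor Tcf21 by 0.84, the growth factor receptors Pdgfra and Pdgfrb by 0.30 and 0.24, and the matrix proteoglycan Dcn by 0.18 on the log2 scale. The Dcn call was lost in 4 of 16 alternatives, among them those without scramble replicate 3 or knockdown replicate 1 or 3. Mesothelial markers summed to 93.8 to 99.7 CPM in scramble and 212 to 225 CPM in knockdown libraries, and 6 of the 8 rose. Mural markers summed to 81.3 to 83.7 and 56.1 to 60.8 CPM, and 2 of 7 tested fell. Macrophage and leukocyte markers summed to 142 to 153 and 162 to 165 CPM, with 1 of 8 rising, and endothelial markers to 196 to 224 and 204 to 215 CPM, with 2 of 10 rising and 1 falling. Of the 12 cardiomyocyte markers 4 had a row, summing to 21.0 to 22.1 CPM in scramble and 25.7 to 32.5 CPM in knockdown libraries. Nearly all of that was Tnnt2, which rose, while Myh6 lay at 0.185 (scramble) and 0.182 CPM (knockdown). The part of these other cells in the results was not tested, and in bulk RNA fewer cells of a type and less RNA per cell cannot be told apart.

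In knockdown cells most enzyme genes of the later steps of glycolysis, from aldolase to pyruvate kinase, rose by small amounts, while Ldha, which turns their end product into lactate, fell to 73.8% of its scramble level. Hexokinase Hk2, the lactate transporter Slc16a1 and the regulatory enzyme Pfkfb4 rose. The oxygen sensor Egln1, the glucose transporter Slc2a3 and the platelet-type phosphofructokinase Pfkp fell, and the HIF subunits themselves did not pass the test. Of the 34 genes 11 rose and 5 fell (edgeR quasi-likelihood test, adjusted p under 0.05). That is 32.4% rising against 16.4% of all tested genes, and 14.7% falling against 15.8%, a share near the background. The groups did not overlap in 21 of 34 genes, or 61.8%, against 43.6% of all tested genes. The median log2 fold change was 0.08 over the 34 genes and -0.001 over all tested genes, and the median size was 0.15 and 0.16. None of the 34 changed 2-fold, and the largest called change was 0.72 on the log2 scale. Of the 16 called genes 9 passed in all 16 alternative analyses: Hk2, Pfkfb4, Tpi1, Pgam1, Eno1 and Slc16a1 among the rising, and Egln1, Slc2a3 and Ldha among the falling. Without scramble replicate 2 the rising count was 6, since Pfkm, Aldoa, Pgk1, Pkm and Bnip3 missed the threshold. In that fit 2295 of all genes rose, against 2613 with all libraries. The rising count was 8 to 12 when any other single library was left out, and Pfkm missed the threshold in each of these fits too. The share of rising genes among the 34 thus varied with the libraries used. How much of the drop to 6 came from that library, and how much from having fewer samples, was not tested. On FPKM values the falling count was 3, without Vhl and Pfkp.

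**Figure D1:**
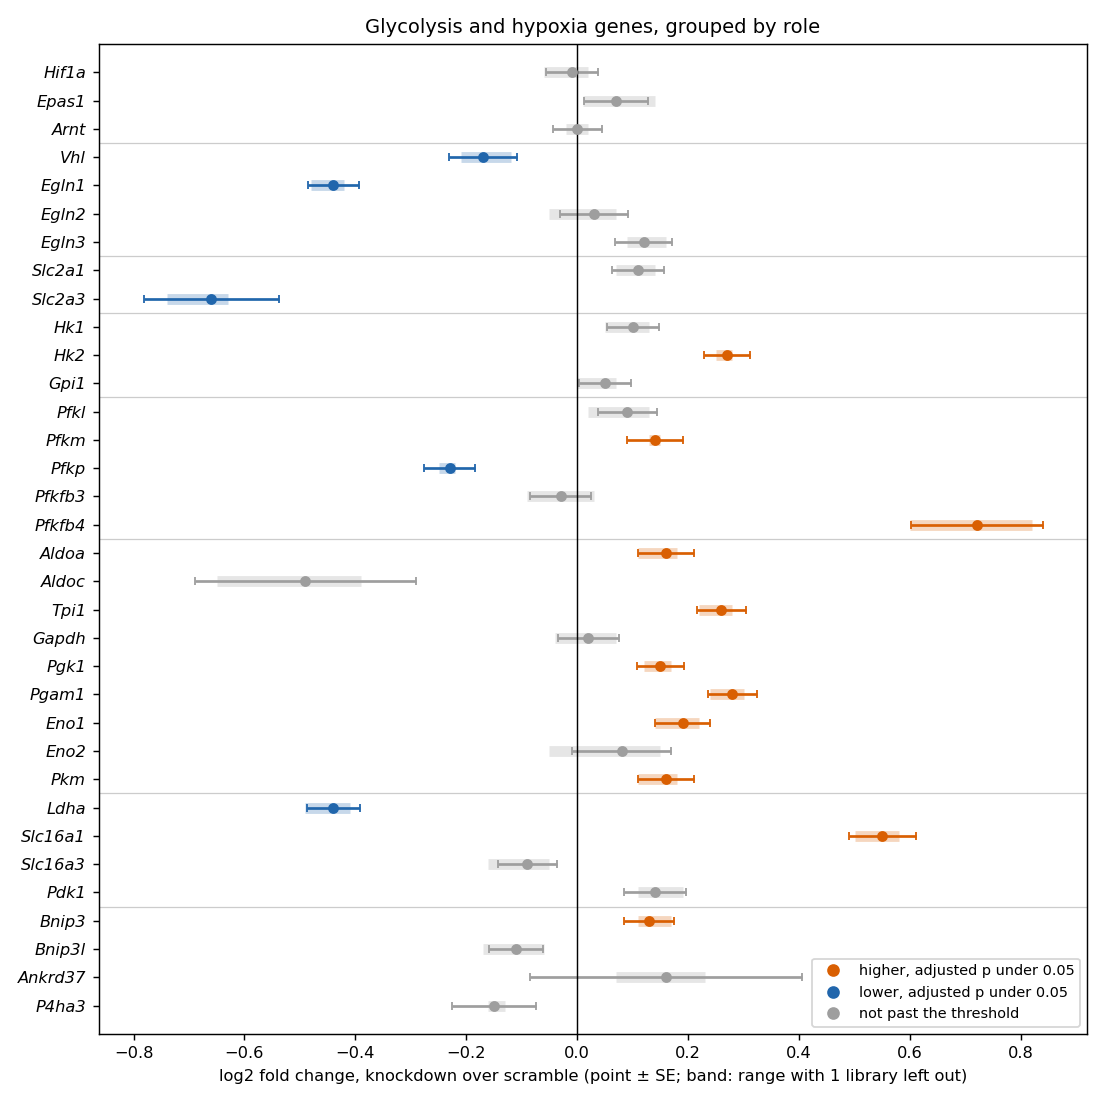
Log2 fold change of knockdown over scramble for the 34 genes (x axis), one gene per line and grouped by role; points with bars are the edgeR estimate ± SE, and pale bands the range when each library in turn is left out. The trunk enzymes Hk2, Aldoa, Tpi1, Pgk1, Pgam1, Eno1 and Pkm sit between 0.15 and 0.28, while Egln1 and Ldha both sit at -0.44.

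Levels of different genes were compared per length, in the TPM (length-scaled transcript abundance) that the authors deposited. In scramble libraries Pkm stood highest at 2044 ± 55.2 TPM (SD, n = 3), then Gapdh at 1855 ± 71.1, Eno1 at 1606 ± 54.9, Aldoa at 1534 ± 45.6 and Ldha at 1412 ± 40.7 TPM. Eno1 and Aldoa, neighbours in this order, had overlapping libraries. In knockdown libraries Ldha stood at 1028 ± 18.9 TPM, still the fifth. The least abundant were Slc2a3 (3.85 ± 0.356 TPM), Pfkfb4 (3.50 ± 0.583), Ankrd37 (2.39 ± 0.208) and Aldoc (1.87 ± 0.153). Summed over the 15 trunk enzyme genes from hexokinase to pyruvate kinase, scramble libraries gave 9879, 9411 and 9717 TPM and knockdown libraries 10836, 10239 and 10487 TPM. Every knockdown library thus lay above every scramble library, with about 1% of all TPM in either group (0.941% to 0.988% against 1.02% to 1.08%). Over all 34 genes, Ldha included, the sums were 12500, 12021 and 12419 TPM in scramble and 13083, 12523 and 12678 TPM in knockdown libraries, which lay above the scramble range by a narrow margin.

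**Figure D2:**
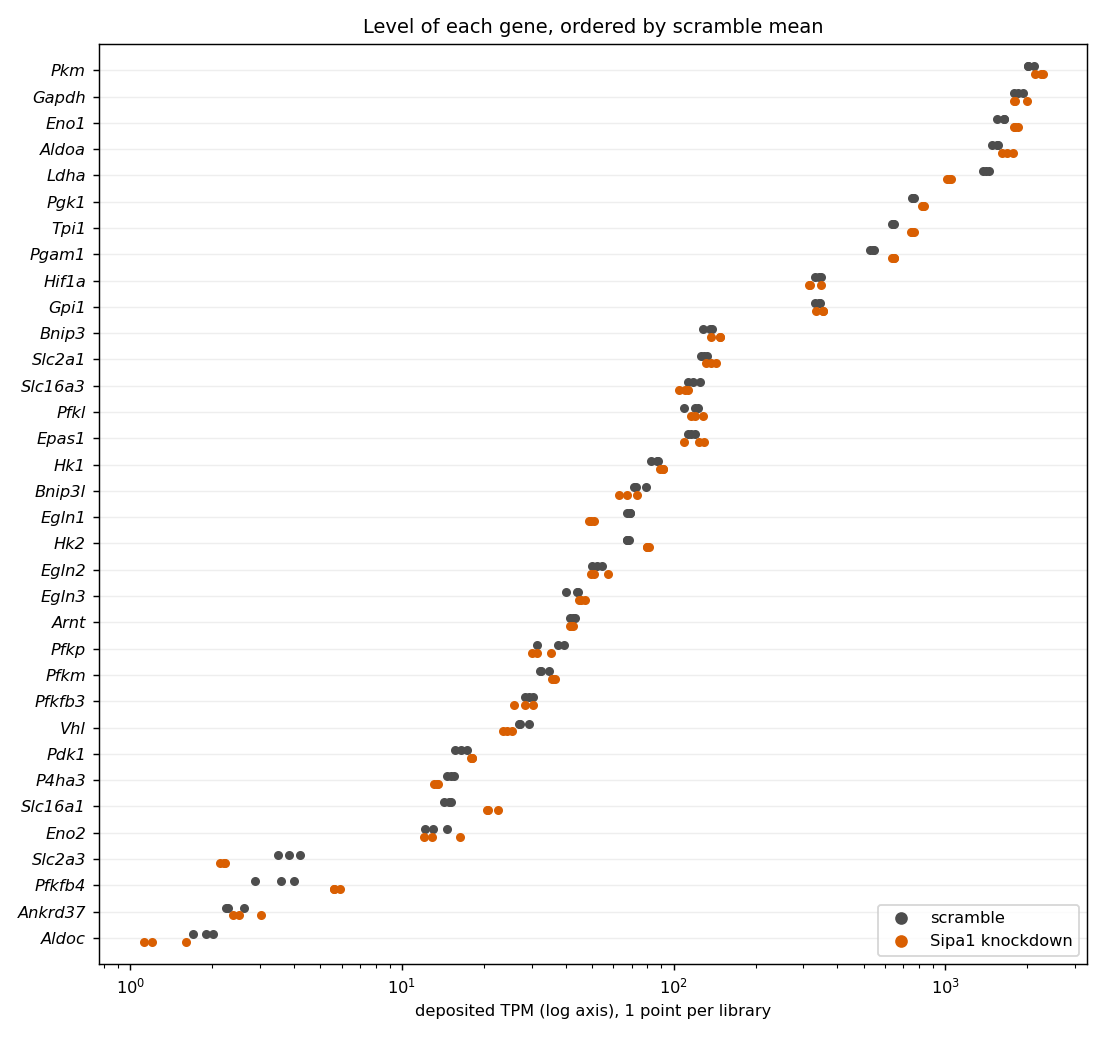
Deposited TPM of the 34 genes on a log axis, ordered by the scramble mean, with 1 point per library (grey scramble, orange knockdown). Pkm stands highest at 2044 TPM and Aldoc lowest at 1.87 TPM, and the Ldha, Egln1, Slc16a1, Slc2a3 and Pfkfb4 points separate by group.

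HIF binds a short core, ACGTG or GCGTG, in the promoters of many of these genes. To show where such letters lie in genes the results turn on, the 250 bases before a RefSeq start are printed for a falling sensor (Egln1), the falling Ldha, and the rising Pgk1, Pgam1 and Slc16a1. Sequences are RefSeq's, build GRCm38.p6, written in the direction of the gene, and capitals mark the core on either strand (CACGT or CACGC where it lies on the opposite strand). Cores that overlap each other, such as the palindrome CACGTG, were counted as 1 site.
Egln1 (chr8:124949255-124949504, minus strand): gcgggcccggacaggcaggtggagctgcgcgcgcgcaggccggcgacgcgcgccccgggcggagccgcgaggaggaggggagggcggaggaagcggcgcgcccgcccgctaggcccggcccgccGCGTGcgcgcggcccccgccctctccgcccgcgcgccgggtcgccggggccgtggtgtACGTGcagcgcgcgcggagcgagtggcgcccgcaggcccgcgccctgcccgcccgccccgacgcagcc
Ldha (chr7:46845554-46845803, plus strand): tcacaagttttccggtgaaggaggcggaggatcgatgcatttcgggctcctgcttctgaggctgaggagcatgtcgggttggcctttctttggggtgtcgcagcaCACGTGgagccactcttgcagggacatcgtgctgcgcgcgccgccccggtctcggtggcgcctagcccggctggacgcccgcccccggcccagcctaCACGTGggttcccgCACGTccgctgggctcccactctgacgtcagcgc
Pgk1 (chrX:106186850-106187099, plus strand): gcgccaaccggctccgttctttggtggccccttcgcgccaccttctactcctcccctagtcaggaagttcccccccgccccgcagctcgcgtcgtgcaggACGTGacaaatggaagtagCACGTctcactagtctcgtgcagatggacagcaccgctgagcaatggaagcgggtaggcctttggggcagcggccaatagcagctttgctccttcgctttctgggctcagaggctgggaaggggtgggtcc
Pgam1 (chr19:41911621-41911870, plus strand): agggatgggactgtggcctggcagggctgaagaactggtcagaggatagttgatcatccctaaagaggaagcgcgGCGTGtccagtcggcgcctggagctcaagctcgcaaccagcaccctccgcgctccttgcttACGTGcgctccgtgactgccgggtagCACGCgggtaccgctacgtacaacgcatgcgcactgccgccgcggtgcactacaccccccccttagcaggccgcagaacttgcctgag
Slc16a1 (chr3:104638414-104638663, plus strand): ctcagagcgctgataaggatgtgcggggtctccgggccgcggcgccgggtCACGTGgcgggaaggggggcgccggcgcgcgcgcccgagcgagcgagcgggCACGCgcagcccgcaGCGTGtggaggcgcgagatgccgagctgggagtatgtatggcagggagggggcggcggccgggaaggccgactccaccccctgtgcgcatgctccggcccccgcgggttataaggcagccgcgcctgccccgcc
Egln1 and Pgk1 held 2 sites each, and Ldha, Pgam1 and Slc16a1 held 3 each. In Ldha the sites begin 145, 48 and 34 bases before the start, and 2 of the 3 are the palindrome. A second Ldha window, before another annotated start, had 1 site. Both Ldha windows lie inside the span given for the gene below, not before its first base. Tpi1, which rose, had no such letters in its window.

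RefSeq windows were found for 31 of the 34 genes, and for all but Epas1, Slc2a3 and Bnip3l. Of these 31 genes 26 had at least 1 site in a window, or 83.9%, against 59.3% of 11712 tested genes with a window. Among genes that rose 10 of 11 had a site, among those that fell 3 of 4, and among those that did not pass 13 of 16. The narrower core ACGTG was present in 44.4% of the 45 windows of these genes and in 20.9% of 14990 windows of tested genes. Windows of the same gene can overlap, as for Aldoa, so a site may be counted in more than 1 window. The median GC content of the windows was 61.6% and 59.2%. The core was thus present among genes that rose, fell or did not pass, and a match is a description of sequence only.

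The HIF subunit transcripts were abundant and close between groups. Hif1a had 654, 652 and 692 CPM in scramble and 643, 705 and 640 CPM in knockdown libraries, a log2 fold change of -0.01 (SE 0.047, edgeR adjusted p = 0.933). Its libraries overlapped, and leaving out any one library kept the value between -0.06 and 0.02. Epas1, the other alpha subunit, stood at 0.07 (SE 0.057, adjusted p = 0.382) and Arnt at 0.00 (SE 0.044, adjusted p = 0.987). Per length, Hif1a transcripts were the more frequent of the alpha subunits: Epas1 took 25.5% ± 0.850 of their summed TPM in scramble and 26.9% ± 1.22 in knockdown libraries.

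Among the genes that restrain HIF, Egln1 fell. Egln1 (chromosome 8, 124908587 to 124949254), the main oxygen-sensing prolyl hydroxylase in normal oxygen, had 107, 98.4 and 106 CPM in scramble and 76.0, 76.0 and 77.3 CPM in knockdown libraries. The groups did not overlap, and the knockdown libraries lay close together. In log2 terms Egln1 fell to 73.6% of its scramble level (-0.44, SE 0.046, edgeR adjusted p = 8.70e-08), with a range of -0.48 to -0.42 over the alternatives. Egln2, its mainly nuclear relative, stood at 0.03 (SE 0.061, adjusted p = 0.760). Egln3, itself a HIF target, had 47.2, 48.9 and 51.9 CPM against 53.1, 54.7 and 52.9 CPM. Its groups did not overlap, but the value of 0.12 (SE 0.051, adjusted p = 0.0820) missed the threshold, and passed only without scramble replicate 3 (0.0498). The Egln1 share of the summed Egln TPM was 41.9% ± 0.587 in scramble and 33.6% ± 1.14 in knockdown libraries. That of Egln2 was 31.9% ± 1.25 and 35.5% ± 2.22, and that of Egln3 26.2% ± 1.44 and 30.9% ± 1.22, each without overlap between groups. The exact two-sided permutation test gave 0.1 for each, the smallest p that 3 against 3 samples allow, and 0.163 adjusted over the 13 shares tested. The summed TPM of the 3 Egln genes was 164 in each scramble library and 151, 146 and 147 in knockdown libraries. Vhl, the substrate receptor of the ubiquitin ligase, had 32.6, 31.1 and 35.3 CPM against 28.6, 29.2 and 30.4 CPM and fell by 0.17 on the log2 scale (SE 0.061, edgeR adjusted p = 0.0378). That call was lost in 9 of 16 alternatives, among them DESeq2 (0.0542) and the fits that left out the first (0.0722) or the third (0.233) scramble library, or the first (0.102) or the second (0.0709) knockdown library.

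**Figure D3:**
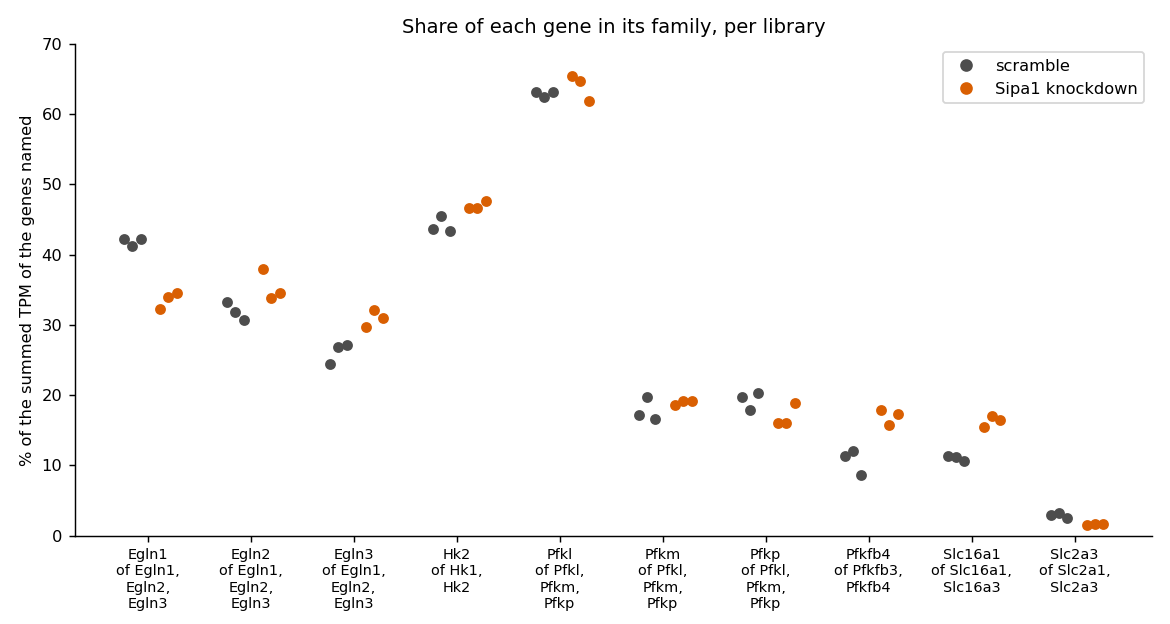
Share of each named gene in the summed TPM of its family (y axis, %), with 1 point per library in grey for scramble and orange for knockdown. The Egln1 share lies between 41.2% and 42.3% in scramble and between 32.3% and 34.5% in knockdown libraries, and the Slc16a1 share between 10.6% and 11.3% against 15.5% and 17.0%.

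Glucose enters most cells through Slc2a1, which stood at 129 ± 3.75 TPM against the 3.85 TPM of Slc2a3 in scramble libraries. Slc2a1 had 142, 137 and 150 CPM in scramble and 162, 153 and 146 CPM in knockdown libraries, which overlapped (log2 0.11, SE 0.047, edgeR adjusted p = 0.0918). Slc2a3, a high-affinity transporter best known from neurons and leukocytes, had 6.74, 6.95 and 6.09 CPM in scramble and 3.97, 4.54 and 3.94 CPM in knockdown libraries. It fell to 62.9% of its scramble level without overlap (log2 -0.66, SE 0.122, edgeR adjusted p = 1.88e-04), on 148 to 269 reads a library. On log2(FPKM + 1), which shrinks changes of scarce genes, the value was -0.41. Slc2a3 made up 2.89% ± 0.313 of the summed TPM of the pair in scramble and 1.58% ± 0.0971 in knockdown libraries.

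The first enzymes of the pathway differed by isoenzyme. Hk2, the inducible hexokinase that can bind mitochondria, had 163, 155 and 161 CPM in scramble and 194, 192 and 193 CPM in knockdown libraries. Every knockdown library lay above the scramble range, and Hk2 rose by 0.27 on the log2 scale (SE 0.041, edgeR adjusted p = 1.84e-05), with a range of 0.25 to 0.28 over the alternatives. Hk1, the housekeeping hexokinase, stood at 0.10 (SE 0.047, adjusted p = 0.108), and the isomerase Gpi1 at 0.05 (SE 0.047, adjusted p = 0.492). The share of Hk2 in the summed TPM of both hexokinases was 44.2% ± 1.19 in scramble and 47.0% ± 0.488 in knockdown libraries (exact permutation p = 0.1, adjusted 0.163).

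Phosphofructokinase commits sugar to glycolysis, and its genes differed in direction in the read counts. Pfkl, the liver type and the most abundant per length, stood at 0.09 (SE 0.053, edgeR adjusted p = 0.236). Pfkm, the muscle type, had 40.7, 41.3 and 40.7 CPM in scramble and 46.3, 44.5 and 44.8 CPM in knockdown libraries and rose by 0.14 (SE 0.051, adjusted p = 0.0325). The Pfkm call was lost whenever any 1 of the 6 libraries was left out (adjusted p 0.0531 to 0.0942), although its size stayed between 0.13 and 0.15. Pfkp, the platelet type, had 69.4, 67.7 and 69.7 CPM in scramble and 58.4, 58.4 and 59.2 CPM in knockdown libraries and fell by 0.23 (SE 0.046, adjusted p = 3.78e-04). In the deposited TPM its libraries overlapped, at 37.4, 31.3 and 39.4 in scramble and 31.4, 30.0 and 35.5 in knockdown. On FPKM the Pfkp change was -0.12 with adjusted p = 0.327, and what separates the counts from the length-scaled values was not tested. The shares of Pfkl, Pfkm and Pfkp in their summed TPM each overlapped between groups (exact permutation p = 0.4, 0.4 and 0.2, adjusted 0.433, 0.433 and 0.289).

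The bifunctional enzymes Pfkfb3 and Pfkfb4 set the level of a fructose bisphosphate that activates phosphofructokinase. Pfkfb3 had the higher TPM and stood at -0.03 (SE 0.055, edgeR adjusted p = 0.772). Pfkfb4, a HIF target, had 5.44, 6.14 and 4.45 CPM in scramble and 8.63, 8.35 and 9.30 CPM in knockdown libraries, on 184 to 349 reads. It rose without overlap, by 0.72 on the log2 scale (SE 0.119, adjusted p = 5.59e-05), the largest called change among the 34 genes, and by 0.46 (on log2(FPKM + 1)) to 0.82 over the alternatives. Its share of the summed TPM of the pair was 10.7% ± 1.80 in scramble and 16.9% ± 1.15 in knockdown libraries.

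From aldolase to pyruvate kinase 6 of 9 genes rose and 0 fell, or 66.7% rising against 16.4% of all tested genes, with a median log2 fold change of 0.16 against -0.001. The median size of the change was 0.16 for these 9 genes and also 0.16 for all tested genes. How far the called share depends on the high read counts of these genes was not tested. Pgam1, phosphoglycerate mutase, rose the most of the 6. It had 433, 400 and 437 CPM in scramble and 512, 515 and 514 CPM in knockdown libraries (log2 0.28, SE 0.044, edgeR adjusted p = 2.87e-05). Tpi1, triosephosphate isomerase, had 449, 420 and 450 CPM in scramble and 540, 518 and 521 CPM in knockdown libraries (log2 0.26, SE 0.044, adjusted p = 6.85e-05). Eno1, the ubiquitous enolase, had 1279, 1136 and 1269 CPM against 1445, 1376 and 1388 CPM (log2 0.19, SE 0.050, adjusted p = 0.00446). In each of these the groups did not overlap and scramble replicate 2, the shallowest library, was the lowest of the 6.

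Pgk1, phosphoglycerate kinase, rose by 0.15 (SE 0.043, edgeR adjusted p = 0.0115), with 611, 571 and 604 CPM in scramble and 669, 652 and 657 CPM in knockdown libraries. Aldoa, the main aldolase, rose from 1009 ± 57.4 to 1124 ± 55.1 CPM and Pkm, pyruvate kinase, from 2089 ± 115 to 2329 ± 101 CPM, each by 0.16 on the log2 scale (edgeR adjusted p = 0.0204 and 0.0203). Here too the groups did not overlap. Without scramble replicate 2, Aldoa (adjusted p = 0.106), Pkm (0.0968) and Pgk1 (0.0515) missed the threshold, with log2 changes of 0.11, 0.11 and 0.12. Aldoa (0.118) and Pkm (0.116) also missed it without knockdown replicate 1. The gene-level table does not separate the spliced forms of Pkm.

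Gapdh, the step between Tpi1 and Pgk1, did not pass the test. It had 1221, 1065 and 1152 CPM in scramble and 1257, 1127 and 1106 CPM in knockdown libraries, which overlapped (log2 0.02, SE 0.055, edgeR adjusted p = 0.814). Leaving out any library kept Gapdh between -0.04 and 0.07. Eno2, the neuronal enolase, was scarce and stood at 0.08 (SE 0.090, adjusted p = 0.579). Aldoc, the brain-type aldolase, had 54 to 91 reads a library and a log2 value of -0.49 (SE 0.199, adjusted p = 0.0629). Its groups did not overlap, and it passed when knockdown replicate 3 was left out (0.0298) or genes were required to reach 1 CPM in 3 libraries (0.0477).

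Downstream of pyruvate, Ldha and Slc16a1 moved in opposite directions. Ldha (chromosome 7, 46842274 to 46855627), the lactate dehydrogenase subunit that favours lactate formation, had 1007, 921 and 1029 CPM in scramble and 750, 726 and 708 CPM in knockdown libraries. The lowest scramble library stood well above the highest knockdown library, and Ldha fell by 0.44 on the log2 scale (SE 0.048, edgeR adjusted p = 2.10e-07), or by 0.41 to 0.49 over the alternatives. For every 100 Pkm TPM there were 67.1, 68.2 and 72.0 Ldha TPM in scramble and 46.0, 48.4 and 44.9 in knockdown libraries, a ratio chosen after the values were seen. Slc16a1, a monocarboxylate transporter that carries lactate and pyruvate either way, had 29.4, 26.2 and 28.9 CPM in scramble and 40.6, 43.4 and 39.3 CPM in knockdown libraries. It rose to 146% of its scramble level without overlap (log2 0.55, SE 0.060, adjusted p = 2.49e-07). Ldhb and Emb, named here after their values were seen, had lower TPM than Ldha and Slc16a1, respectively. Ldhb, the subunit that favours pyruvate formation, had 7.87, 8.43 and 8.00 CPM against 12.2, 10.0 and 10.5 CPM and rose without overlap by 0.43 (SE 0.098, adjusted p = 0.00163), a call kept in all 16 alternatives. Emb, a chaperone of monocarboxylate transporters, had 7.22, 7.99 and 8.49 CPM against 5.06, 6.57 and 6.02 CPM and fell without overlap by 0.42 (SE 0.118, adjusted p = 0.00771), a call lost in 3 of 16 alternatives, among them those without scramble replicate 3 or knockdown replicate 1. Bsg, the other such chaperone in the list that holds Emb, was not among the called genes of that list. Which of these chaperones serves Slc16a1 in these cells was not tested. Slc16a3, the HIF-induced lactate exporter, had the higher TPM and stood at -0.09 (SE 0.053, adjusted p = 0.191). It passed only without scramble replicate 2 (-0.16, adjusted p = 0.0220). The share of Slc16a1 in the summed TPM of the pair was 11.1% ± 0.366 in scramble and 16.3% ± 0.744 in knockdown libraries (exact permutation p = 0.1, adjusted 0.163).

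**Figure D4:**
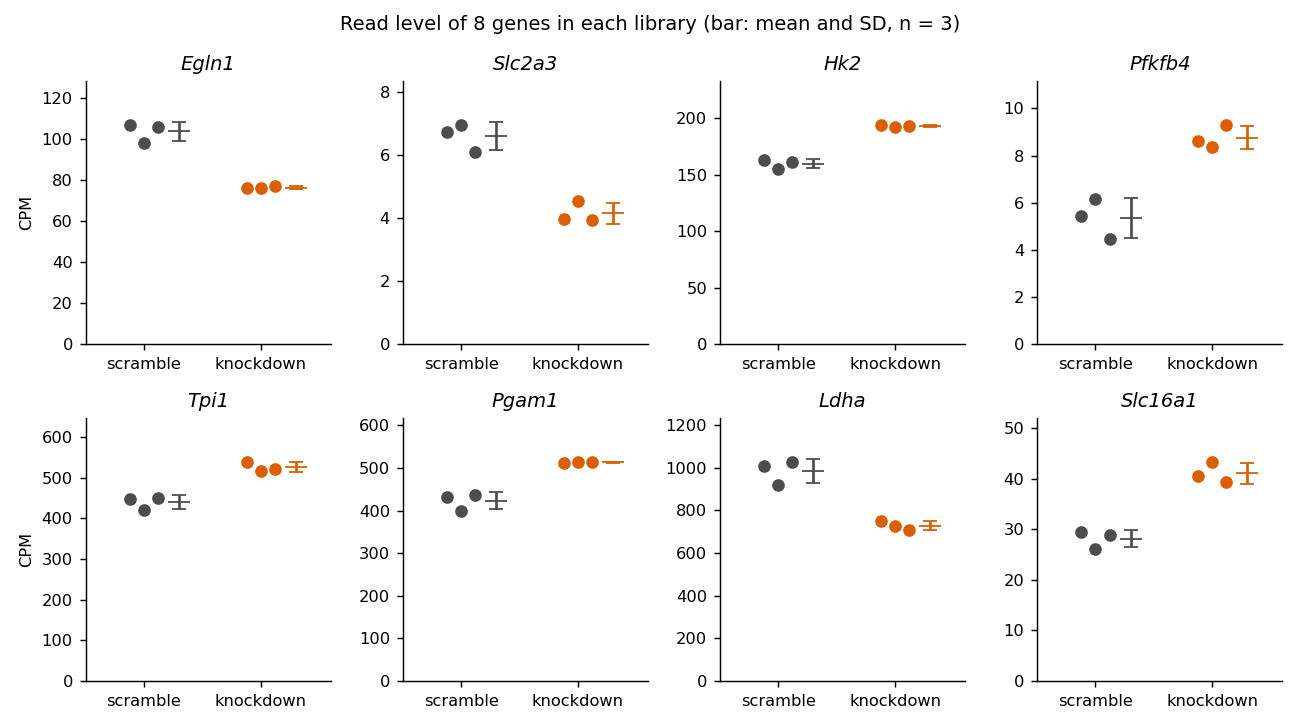
CPM of 8 genes in each library (y axes start at 0), with 3 scramble points in grey, 3 knockdown points in orange, and the mean and SD beside them. The groups do not overlap in any panel: Egln1, Slc2a3 and Ldha are lower in knockdown, and Hk2, Pfkfb4, Tpi1, Pgam1 and Slc16a1 are higher.

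The remaining HIF-responsive genes moved little. Pdk1, the kinase that shuts off pyruvate dehydrogenase under hypoxia, had 35.8, 35.4 and 39.4 CPM in scramble and 41.0, 40.9 and 40.2 CPM in knockdown libraries (log2 0.14, SE 0.056, edgeR adjusted p = 0.0565). It missed the threshold narrowly and passed without scramble replicate 3 (0.0251). Bnip3, a receptor for the removal of mitochondria, rose from 101 ± 4.19 to 111 ± 3.72 CPM (log2 0.13, SE 0.045, adjusted p = 0.0298). That call was lost in 5 of 16 alternatives, among them the fits that left out the first (0.132) or the second (0.0959) scramble library, or the second (0.124) or the third (0.106) knockdown library. Its relative Bnip3l stood at -0.11 (SE 0.049, adjusted p = 0.105), and passed without knockdown replicate 2 (0.0128). The collagen prolyl hydroxylase subunit P4ha3 stood at -0.15 (SE 0.075, adjusted p = 0.138). Ankrd37, a sensitive HIF target in many cells, had 29 to 47 reads a library and a value of 0.16 (SE 0.245, adjusted p = 0.673), so only a large change could have been detected.

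Neighbouring genes of the pathway were taken from lists chosen with earlier results of these data known, which limits the shares below. Of 39 other HIF targets, all tested, 14 fell (35.9%, against 15.8% of all tested genes) and 10 rose (25.6%, against 16.4%), with a median of -0.06. The vasodilator peptide gene Adm (-0.62), the mTOR inhibitor Ddit4 (-0.60) and the repressor Bhlhe40 (-0.46) fell, while the angiogenic factor Vegfa (0.56), the transferrin receptor Tfrc (0.45) and haem oxygenase Hmox1 (0.26) rose. Of 19 tested HIF pathway regulators 3 fell and 2 rose, a called share of 26.3% against 32.2% of all tested genes. Idh1, which makes the oxoglutarate that prolyl hydroxylases consume, had 110 ± 1.83 CPM in scramble and 77.1 ± 3.43 CPM in knockdown libraries and fell by 0.52 on the log2 scale (SE 0.046, edgeR adjusted p = 7.64e-09). Arnt2, a relative of Arnt, rose by 0.49 (SE 0.058, adjusted p = 6.11e-07). Cited2, which competes with HIF for coactivators, rose by 0.15, and the ligase genes Cul2 (-0.17) and Siah1a (-0.25) fell. The Cited2 call was lost in 3 of 16 alternatives (without scramble replicate 2 or 3, or knockdown replicate 1). The Cul2 call was lost in 7, among them those without scramble replicate 1 or 3 or knockdown replicate 1, and the Siah1a call in 6, among them those without any 1 scramble library or without knockdown replicate 1 or 3.

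Of 25 tested further sugar and lactate transporters and isoenzymes 9 rose (36.0%, against 16.4% of all tested genes) and 5 fell (20.0%, against 15.8%, a share close to the background). The largest changes among the named ones were in scarce genes. Muscle-type Pgam2 rose from 1.50 ± 0.215 to 3.44 ± 1.11 CPM (edgeR adjusted p = 1.54e-04). The transporter gene Slc2a6 fell (adjusted p = 3.34e-06), with 7.39 ± 0.474 CPM in the scramble group against 3.69 ± 0.642 CPM. Phosphoglucomutase Pgm2 (0.34) and the ADP-dependent glucokinase Adpgk (0.28) rose, and the transporter Slc2a10 (-0.34) and the amino-sugar mutase Pgm3 (-0.26) fell.

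Of 16 genes that carry pyruvate into acetyl-CoA 5 rose (31.2%, against 16.4% of all tested genes) and 6 fell (37.5%, against 15.8%). The pyruvate dehydrogenase kinases differed: Pdk4, whose scramble mean of 10.4 ± 0.545 CPM compared with 14.0 ± 0.781 CPM after knockdown, rose by 0.43 (SE 0.084, edgeR adjusted p = 4.02e-04). Pdk2, at 7.44 ± 0.742 and 4.56 ± 0.592 CPM, fell by 0.71 (SE 0.125, adjusted p = 1.17e-04). The phosphatase Pdp2 and the phosphatase regulator Pdpr, which reactivate the complex, fell by 0.77 and 0.48 on the log2 scale. The subunit gene Pdhb rose by 0.24, as did the mitochondrial pyruvate carrier gene Mpc2, whose call was lost in 4 of 16 alternatives, among them those without scramble replicate 1 or knockdown replicate 2 or 3. Mpc1, the other subunit of that carrier, fell by 0.18 (SE 0.067, adjusted p = 0.0475), with 24.0 ± 1.41 CPM in the scramble group against 21.3 ± 0.796 CPM. The Mpc1 call was lost in 7 of 16 alternatives: no filter, DESeq2, and the fits without scramble replicate 1 or 3 or any 1 knockdown library. In the pentose phosphate pathway, a branch that yields NADPH and ribose, 3 of 10 genes rose and 1 fell, a called share of 40.0% near the 32.2% of all tested genes. G6pdx, its first enzyme, rose by 0.19 (SE 0.044, adjusted p = 0.00213) and the transaldolase Taldo1 by 0.17. The phosphoribosyl pyrophosphate synthetases Prps1 (0.20) and Prps2 (-0.50) moved oppositely, and the Prps1 call was lost in 5 of 16 alternatives, among them those without scramble replicate 1 or 2 or knockdown replicate 2 or 3.

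The authors' deposited table called 11 of the 34 genes higher and 4 lower at an adjusted p under 0.05, and all 15 were called in the same direction by edgeR. The gene called by edgeR only was Vhl.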

How the data were processed

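Poly(A)-selected, strand-specific paired-end libraries were sequenced, per the labels' protocols. The submitters' processing notes list HISAT2, StringTie and mm10, with no versions. The sources used here do not give the strand setting of the counting. The authors deposited 1 table for all 6 samples, with whole-number read counts, FPKM and TPM per gene, per the file headers. It also holds normalized log2 values, a signed fold score and raw and adjusted p-values, deposited by the authors. These were used here only for the number of calls and the comparison with DESeq2. Every gene has at least 1 read in every library. Library totals ran from 30930998 to 41839742 reads.

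Counts were analysed in R 4.3.3 with edgeR 4.0.16: genes were kept by filterByExpr, scaled by TMM, and tested two-sided by group in a robust quasi-likelihood model, with p-values adjusted by Benjamini-Hochberg over 15954 genes at a threshold of 0.05. SE was taken as the size of the log2 fold change over the square root of F. Levels are mean ± SD, n = 3. Family shares were computed from TPM, with exact two-sided permutation tests over the 20 assignments, adjusted over 13 shares. On simulated counts for this comparison (15798 genes), 57.4%, 87.9% and 97% of genes changed by 0.3, 0.6 and 1 on the log2 scale were recovered. The simulation changed 68, 66 and 66 genes at these sizes, and 16 unchanged genes were called. Far more genes, 5139, were called in the data, so these rates need not hold there. Promoter windows were the 250 bases before each RefSeq start in GRCm38.p6, read in Python 3.11.15 with pandas 2.3.3. Alternatives were DESeq2 1.42.0, limma-voom (limma 3.58.1), RLE scaling, scaling by library size only, no filter, a filter of 1 CPM in 3 libraries, a block for the replicate number, and each library left out. FPKM were tested with limma after adding 1 or 0.1 and taking log2, for genes with a group mean of 0.5 or more, and once unfiltered.

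The genes and lists were chosen with earlier results of these data known. Named genes are all 34 members, Sipa1, and up to 3 rising and 3 falling genes of each further list with the smallest p. Ldhb, Emb, Bsg, Mpc1, the marker genes named singly and the gene copies fall outside this rule and were chosen after their values were seen. Several enzyme genes have near-identical copies, so their counts may be shared with them.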

Additional observations from a re-analysis of the deposited data

How the results depend on the processing

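No called value among the 34 genes changed sign under any of the 16 alternatives. Sipa1 stayed lower throughout, from -1.36 to -1.10. Leaving out each library gave 6 to 12 rising members and 4 to 6 falling ones, against 11 and 5 with all libraries. The lowest rising count, 6, came without scramble replicate 2. Limma on log2(FPKM + 1), on log2(FPKM + 0.1) and on the first without a filter gave 3 falling members each, and the cause was not tested. The replicate number used as a block gave 12 rising and 5 falling members, the added one being Pdk1 (adjusted p = 0.0473). Deviations of same-numbered samples from their group means correlated at 0.147, 0.049 and -0.104 across genes. The highest value, 0.148, was between scramble replicate 2 and knockdown replicate 3. With 3 samples a group such values cannot show whether the numbers pair the samples. In all, 7 called members lost the call in at least 1 alternative and 5 uncalled members gained one. Family shares kept their direction when computed from FPKM or CPM and with each library left out. Depth limits Ankrd37 and Aldoc, with under 100 reads a library.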

Other observations

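Several glycolytic genes have copies elsewhere in the genome, and reads may be split between a gene and its copy. Pgam1-ps2, annotated as a pseudogene on chromosome 7, held 35.2% as many reads as Pgam1. It had 150.0, 148 and 153 CPM in scramble and 177, 174 and 187 CPM in knockdown libraries, and rose without overlap between groups (log2 0.25, SE 0.043, edgeR adjusted p = 6.73e-05), close to the 0.28 of Pgam1 itself. Pgk1-rs7 held 7.42% as many reads as Pgk1 and stood at 0.10 (SE 0.054, adjusted p = 0.168). The enolase copy Eno1b held 4.10% as many reads as Eno1 and stood at 0.14 (SE 0.062, adjusted p = 0.0935), passing only without knockdown replicate 2 and with the replicate block. Ldha-ps2 had 7 to 20 reads a library, so that its value of -0.97 (SE 0.407, adjusted p = 0.0719) did not pass. Pgam1-ps1 held 1.06% as many reads as Pgam1 and stood at 0.17 (SE 0.129, adjusted p = 0.353), and Bnip3l-ps held 3.95% as many as Bnip3l and stood at -0.29 (SE 0.137, adjusted p = 0.116). How far reads of a gene were placed on its copy was not tested.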
